A study of Mus musculus with 9 samples.

Results

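A set of 9 genes of microglia, the resident macrophages of the brain, was followed by RNAseq in the mediobasal hypothalamus (MBH) of young mice. They are Cx3cr1, Csf1r, P2ry12, Tmem119, Aif1 and Trem2, which encode receptors and marker proteins of homeostatic microglia, and C1qa, C1qb and C1qc, which encode the C1q complement protein. The genes were chosen by symbol, and all 9 of them were among the 15340 genes tested. Wild-type C57Bl/6 male pups were sampled at P21 from 4 control litters (CTRL) and 5 litters of emulsifier-treated dams (Emul), with 1 library per litter. Control dams drank water, and Emul dams drank water with 1% carboxymethylcellulose (CMC) and 1% P80, a polysorbate, both food emulsifiers, from before mating until the end of lactation. Pups stayed with their dams until weaning, so intake of the supplemented water by the pups themselves cannot be told apart from maternal exposure. The MBH is bulk tissue that also holds neurons, astrocytes, oligodendrocytes and vessels, and in such samples fewer microglia and less RNA per microglial cell cannot be told apart. Libraries held 28245360 to 46067534 estimated counts.

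Microglia need signalling through the CSF1 receptor, encoded by Csf1r, for their survival, and they read neuronal signals through the fractalkine receptor, encoded by Cx3cr1, and the purinergic receptor encoded by P2ry12. In the young brain they also prune synapses, a process in which C1q tags material for removal and starts the classical complement cascade. C1q consists of 3 kinds of chains, A, B and C, and microglia are its main source in the brain.

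Promoter sequence is shown first, because microglia express all 9 genes. RefSeq promoter windows (GRCm38.p6, 250 bases before to 50 after a start) existed for 6 of the 9 genes, Cx3cr1, P2ry12, Aif1, Trem2, C1qb and C1qc. The core AGGAAG, the type of ETS site that the macrophage factor PU.1 binds, was searched on both strands, as AGGAAG or CTTCCT, and was selected after several motifs had been looked at. It occurred in the windows of 4 of the 6 genes, P2ry12, Trem2, C1qb and C1qc, against 35.4% of all 32851 windows. The 100 bases before the start are shown for the 3 genes with a match there, in the direction of transcription and with the match in capitals. They lie at chr3:59262986-59263085 (minus strand) for P2ry12, chr17:48346301-48346400 (plus strand) for Trem2 and chr4:136886201-136886300 (minus strand) for C1qb.
P2ry12: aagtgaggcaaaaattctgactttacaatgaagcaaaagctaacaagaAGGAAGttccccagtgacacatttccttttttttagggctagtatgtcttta
Trem2: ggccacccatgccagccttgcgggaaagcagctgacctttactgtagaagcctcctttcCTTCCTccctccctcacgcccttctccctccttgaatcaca
C1qb: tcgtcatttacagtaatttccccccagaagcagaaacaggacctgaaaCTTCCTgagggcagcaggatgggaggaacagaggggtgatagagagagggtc
The first base of the match lay at position -52 in P2ry12 and C1qb and at -41 in Trem2, counted from the start. In P2ry12 AGGAAG was on the strand shown, and in Trem2 and C1qb on the other strand, so that CTTCCT appears there. These are matches of letters, and binding was not measured. The P2ry12 window lies near the starts of the transcripts P2ry12-201 and P2ry12-204. The transcript P2ry12-202, with mean shares of 72.7% in CTRL and 67.2% in Emul of the gene's estimated counts, starts elsewhere, at chr3:59220259.

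None of the 9 genes differed between the groups at the cutoff of an unadjusted p-value under 0.05 and more than 1.5-fold. In limma-voom, 0 of 9 passed that cutoff, against 0.469% of all genes tested, 0 of 9 had an unadjusted p-value under 0.05, against 15.8% of all genes, and 0 of 9 had an adjusted p-value under 0.05, against 0.117%. Likewise 0 of 9 reached an unadjusted p-value under 0.05 in edgeR's quasi-likelihood test and in DESeq2. CTRL and Emul values overlapped for every one of the 9 genes, whereas the groups did not overlap for 6.6% of all genes. The median log2 fold change of the 9 genes was 0.016, beside 0.0015 over all genes tested, with 5 genes above 0 and 4 below. With 1 library left out this median ranged from -0.016 to 0.044, so its direction was not settled. For 8 of the 9, the 95% interval of the fold change lay within 1.25-fold in either direction, and Aif1 was the exception.

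**Figure D1:**
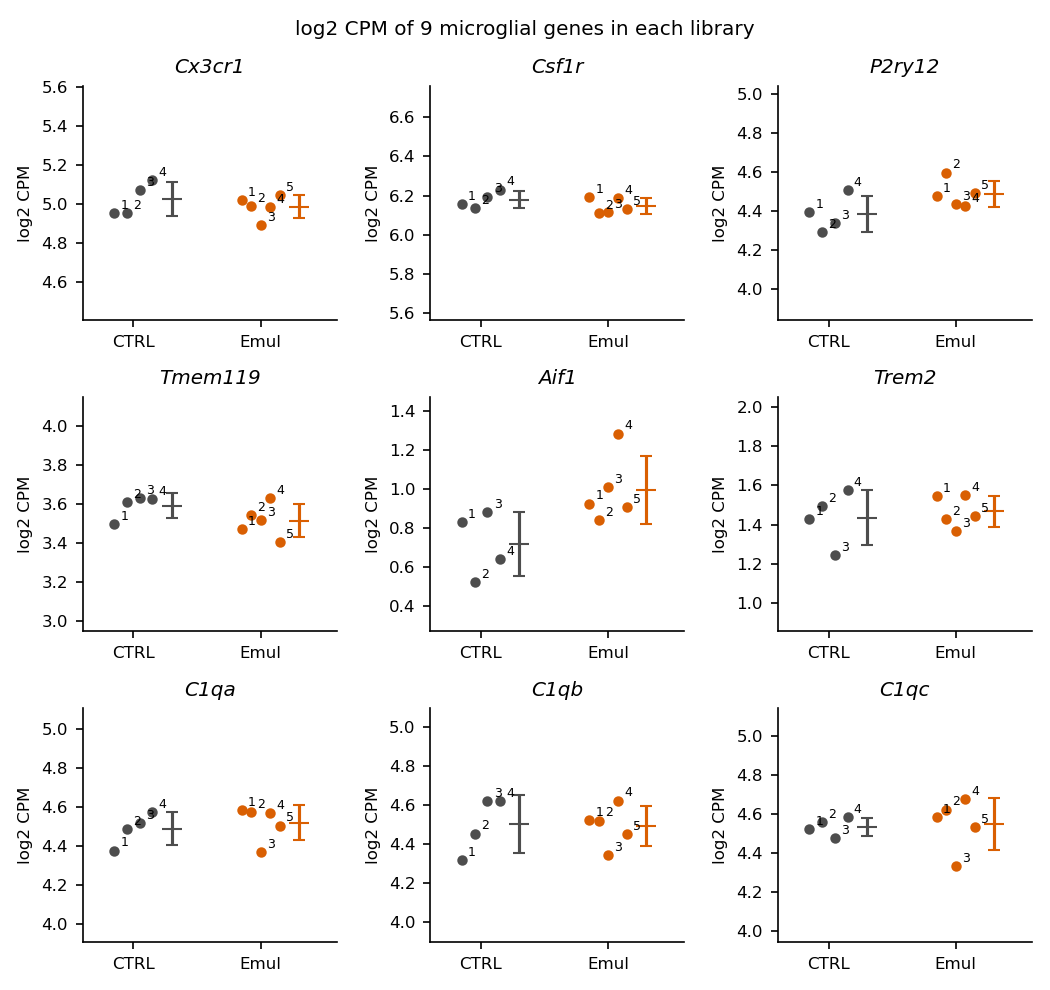
Log2 CPM (counts scaled to library size with TMM, on a log2 scale) of each gene in each library, with CTRL in grey and Emul in orange, replicate numbers beside the points, and the mean and SD of each group to the right of its points. Every panel spans the same range of log2 CPM, and in each the 2 groups overlap, with Aif1 showing the widest spread.

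Csf1r, the receptor tyrosine kinase for the cytokines CSF1 and IL-34 (chr18:61100598-61132149, plus strand, mm10), was the most steady of the 9. Its log2 CPM was 6.16, 6.14, 6.19 and 6.23 in CTRL 1 to 4 and 6.19, 6.11, 6.12, 6.19 and 6.13 in Emul 1 to 5. The highest value came from CTRL 4 and the lowest from Emul 2, and the remaining libraries intermingled. The log2 fold change was -0.03 (SE 0.034, 95% interval -0.11 to 0.04, limma-voom adjusted p = 0.672, exact permutation p = 0.262).

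Cx3cr1, the receptor for the neuronal chemokine fractalkine (chr9:119901616-120069879, minus strand), had log2 CPM values of 4.95, 4.95, 5.07 and 5.12 in CTRL 1 to 4. In Emul 1 to 5 they were 5.02, 4.99, 4.89, 4.98 and 5.04. Only Emul 3 lay below all CTRL libraries, and 2 CTRL libraries lay above all Emul ones. The log2 fold change was -0.04 (SE 0.048, 95% interval -0.14 to 0.07, limma-voom adjusted p = 0.742, exact permutation p = 0.444).

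P2ry12, the ADP receptor that guides microglial processes towards injury (chr3:59216272-59262871, minus strand), gave 4.40, 4.29, 4.34 and 4.51 in CTRL 1 to 4 and 4.47, 4.60, 4.44, 4.43 and 4.49 in Emul 1 to 5. All 5 Emul libraries lay above 3 of the 4 CTRL libraries, but CTRL 4 exceeded all Emul libraries except Emul 2. The log2 fold change of 0.10 (SE 0.055, 95% interval -0.02 to 0.22) did not pass the test (limma-voom adjusted p = 0.409, exact permutation p = 0.119). With 1 library left out it ranged from 0.06 without CTRL 2 (adjusted p = 0.664) to 0.14 without CTRL 4. Without CTRL 4 the unadjusted p was 0.0253 and the adjusted p 0.348. Over 23 alternative analyses the log2 fold change of P2ry12 ranged from 0.00031 to 0.14. The lowest value came from summing only transcripts with lower Ensembl numbers, so its size depended on which transcripts were counted.

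Tmem119, a membrane protein used to tell microglia from other macrophages (chr5:113793729-113800516, minus strand), gave log2 CPM values of 3.496, 3.61, 3.63 and 3.63 in CTRL 1 to 4. Emul 1 to 5 gave 3.47, 3.55, 3.52, 3.63 and 3.403. The lowest pair came from the Emul group, while Emul 4 matched the upper CTRL libraries. Its log2 fold change was -0.07 (SE 0.061, 95% interval -0.20 to 0.06, limma-voom adjusted p = 0.604, exact permutation p = 0.175).

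Aif1 encodes the calcium-binding protein IBA1, the common histological marker of microglia (chr17:35170991-35176068, minus strand). It was counted thinly, with 51 to 108 estimated counts per library. Its log2 CPM was 0.83, 0.52, 0.88 and 0.64 in CTRL 1 to 4 and 0.92, 0.84, 1.01, 1.28 and 0.91 in Emul 1 to 5. In 4 of the 5 Emul libraries it exceeded every CTRL library, and Emul 2 lay between CTRL 1 and CTRL 3. The log2 fold change of 0.30 (SE 0.14, 95% interval -0.0030 to 0.60) had a limma-voom p of 0.0520 and an adjusted p of 0.321, and its interval reached past 1.5-fold. A two-sided exact permutation test of the log2 CPM values, whose smallest possible p is 0.0079, gave p = 0.0317 for Aif1. It was the only one of the 9 under 0.05 in that test, without adjustment over the 9 genes. The share of all genes under 0.05 was not computed for the permutation test, and was 15.8% for unadjusted p-values in limma-voom. Over 22 alternative analyses the log2 fold change of Aif1 ranged from 0.22 to 0.35 and the adjusted p from 0.256 to 0.607, with 4 unadjusted p-values under 0.05. On TPM as deposited, scaled only to the same total in each library, the log2 difference of Aif1 was 0.13 (exact permutation p = 0.484). Without mitochondrial transcripts it was 0.19 (exact permutation p = 0.302).

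Trem2, a lipid-sensing receptor that drives microglial phagocytosis (chr17:48346401-48354147, plus strand), was also low, with 66 to 131 estimated counts. Its log2 CPM was 1.43, 1.496, 1.24 and 1.58 in CTRL 1 to 4 and 1.55, 1.43, 1.37, 1.55 and 1.44 in Emul 1 to 5. Both extremes, CTRL 3 and CTRL 4, belonged to the CTRL group. The log2 fold change was 0.02 (SE 0.10, 95% interval -0.21 to 0.25, limma-voom adjusted p = 0.949, exact permutation p = 0.714). The SD over the 9 libraries, 0.11 on the log2 scale, was below the 0.14 that counting alone would give at this depth, so differences of that size were not detectable for Trem2. For Csf1r the same 2 values were 0.042 and 0.027.

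**Figure D2:**
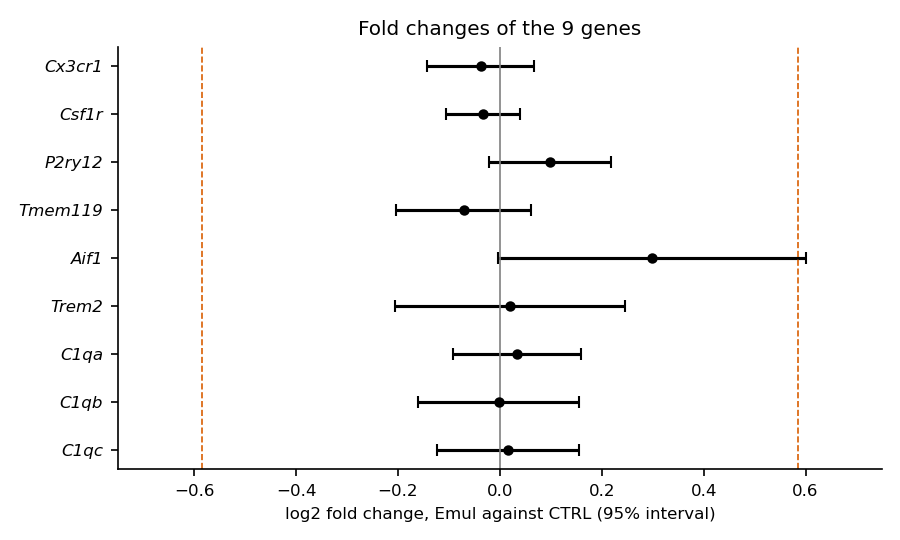
Log2 fold changes of Emul against CTRL (points) with 95% intervals from limma-voom (bars), for 4 CTRL and 5 Emul libraries, with dashed lines at 1.5-fold. All 9 intervals include 0, and that of Aif1 alone crosses the 1.5-fold line.

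The 3 C1q genes lie side by side within 18.7 kb of chromosome 4, on the minus strand, with C1qb at chr4:136880129-136886187, C1qc at chr4:136889804-136893065 and C1qa at chr4:136895917-136898803. For C1qa the log2 CPM was 4.38, 4.49, 4.52 and 4.57 in CTRL 1 to 4 and 4.58, 4.57, 4.37, 4.57 and 4.50 in Emul 1 to 5. For C1qb it was 4.32, 4.45, 4.62 and 4.62 in CTRL and 4.52, 4.52, 4.34, 4.62 and 4.45 in Emul. For C1qc it was 4.52, 4.56, 4.48 and 4.58 in CTRL and 4.58, 4.62, 4.33, 4.67 and 4.53 in Emul. CTRL 1 was the lowest library of its group for the A and B chains, and Emul 3 was the lowest Emul library for all 3 chains. The log2 fold changes were 0.03 for C1qa (SE 0.058, 95% interval -0.09 to 0.16), -0.0026 for C1qb (SE 0.072, 95% interval -0.16 to 0.16) and 0.02 for C1qc (SE 0.064, 95% interval -0.12 to 0.15). Their limma-voom adjusted p-values were 0.820, 0.992 and 0.933, and the exact permutation test gave 0.595, 0.929 and 0.841.

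Levels between genes were compared on the TPM scale, which divides counts by transcript length. The C1q chains and Csf1r were the most abundant of the 9, with means over the 9 libraries of 48.3 ± 3.17 TPM for C1qa, 45.6 ± 4.59 for C1qb, 41.9 ± 3.004 for C1qc and 38.5 ± 2.20 for Csf1r (SD, n = 9). Each of C1qa, C1qb and C1qc exceeded the next gene in this order in 8 of 9 libraries, by ratios of 1.06, 1.09 and 1.09 between the means, so these 4 lay close together. P2ry12 (26.4 ± 1.24 TPM), Cx3cr1 (17.3 ± 1.51), Tmem119 (11.2 ± 1.200) and Aif1 (5.77 ± 1.015) followed, and from Csf1r down to Aif1 every gene exceeded the next in 9 of 9 libraries. Trem2 was lowest at 4.06 ± 0.364 TPM, below Aif1 in 8 of 9 libraries. With counts divided by the effective length of each gene's most abundant transcript, 7 of the 9 genes kept their place and the lowest pair changed places, with Trem2 above Aif1 in 6 of 9 libraries. The ratio of C1qa to C1qc ranged from 1.07 to 1.22 over the libraries and that of C1qb to C1qc from 0.971 to 1.24.

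**Figure D3:**
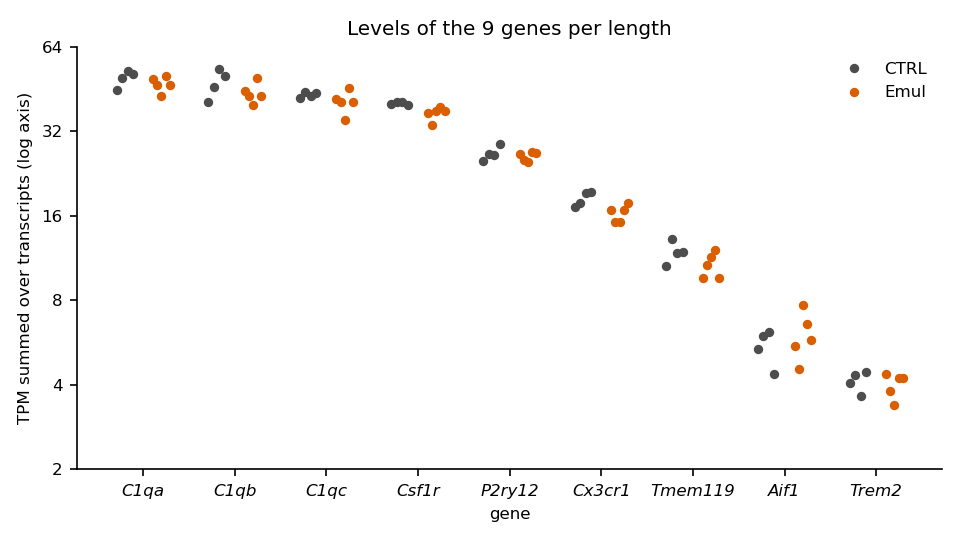
TPM summed over the transcripts of each gene in each of the 4 CTRL (grey) and 5 Emul (orange) libraries, on a log axis. The 3 C1q genes and Csf1r lie together at the top and Trem2 at the bottom, at about 4 TPM.

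The scale mattered for small differences. On TPM as deposited, 8 of the 9 genes had a lower mean in Emul, Csf1r did not overlap between the groups (39.7 to 40.9 TPM in CTRL and 33.8 to 39.1 in Emul, exact permutation p = 0.0159) and Cx3cr1 gave an exact permutation p of 0.0397. On that scale 13.4% of all genes did not overlap and the median log2 difference over all genes was -0.10. TPM is scaled to the same total in each library, without a further step such as TMM. Mitochondrially encoded transcripts held 12.6% to 15.4% of TPM in CTRL and 16.2% to 19.2% in Emul. With these transcripts left out of the TPM, 0 of the 9 genes had an exact permutation p under 0.05. The values were 0.0794 for Csf1r and 0.0952 for Cx3cr1. All 9 overlapped, Csf1r only narrowly (46.7165 to 46.9797 TPM in CTRL and 41.8235 to 46.7256 in Emul), and 6 of the 9 were still lower in Emul. The share of all genes without overlap on this scale was not computed.

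Across libraries the C1q chains varied together. Over 9 libraries, Pearson's r of log2 CPM was 0.86 for C1qa with C1qb, 0.77 for C1qa with C1qc and 0.57 for C1qb with C1qc, which share libraries, depth and scaling. Of the 36 pairs among the 9 genes, 30 had an r above 0 and 9 an r above 0.5. The lowest r was -0.36, between P2ry12 and Tmem119, and Cx3cr1 with C1qb reached 0.73. Cx3cr1 and Csf1r had an r of 0.71. The mean log2 CPM of the 3 C1q genes was lowest in Emul 3 (4.35) and highest in Emul 4 (4.62), so the Emul group held both ends of the range.

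The 10 genes whose log2 CPM was most like the mean of the standardised values of the 9 genes, by Pearson's r over 9 libraries, were Dcps (0.96), Gpbp1l1 (0.92), Dpf3 (0.92), Fsd2 (0.92), Prdm16 (0.92), 5730507C01Rik (0.90), Iqcc (0.90), Pzp (0.90), Nat8f4 (0.90) and Tamm41 (0.87). None of these 10 belonged to a list of microglial, complement or cell type genes. They are the highest among all genes tested, over only 9 libraries, and whether so high an r could arise by chance was not tested. After subtracting the group means, 7 of them were also among the 10 most alike. The groups hardly differed in the 9 genes, so this subtraction could change little and is no separate check. For 19 other homeostatic microglial genes the median r was 0.50, with 18 above 0, beside a median of 0.0025 over all genes tested. The integrin chain Itgam (0.85) and the purinergic receptor P2ry13 (0.74) were among the highest of these 19. The part of microglia in the bulk levels of these 19 genes was not tested.

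The 31 annotated transcripts of the 9 genes were unevenly used. C1qa and C1qb each had 1 transcript, and in Csf1r, Tmem119 and C1qc a single transcript held over 90% of the estimated counts in every library. Shares of transcripts that overlap are model estimates of kallisto. For the most abundant transcript of each of the 7 genes with more than 1, no difference in share between the groups passed the exact permutation test, with p-values adjusted over these 7 genes from 0.222 to 0.881.

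Cx3cr1-201 held 71.7%, 65.0%, 68.2% and 68.4% of the gene's counts in CTRL 1 to 4 and 73.1%, 87.8%, 82.0%, 84.8% and 61.4% in Emul 1 to 5. Cx3cr1-202 held 25.3%, 29.5%, 26.9% and 27.3% in CTRL and 20.5%, 5.95%, 12.2%, 11.9% and 32.2% in Emul. The CTRL libraries lay close together, while 4 Emul libraries were above and Emul 5 was below all of them in the share of Cx3cr1-201. The difference of 9.52 percentage points in the mean share of Cx3cr1-201 had an exact permutation p of 0.127 (adjusted p = 0.222). Cx3cr1-202 begins within the first exon of Cx3cr1-201, its second exon (chr9:120049279-120052343) stops 596 bases short of that of Cx3cr1-201 at the 3′ end, and it carries a further exon of 12 bases 148 kb away.

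In Trem2, the transcript Trem2-201 held 41.1% to 57.9% of the counts in CTRL and 50.3% to 75.3% in Emul, a difference of 11.3 percentage points between the means (exact permutation p = 0.119, adjusted p = 0.222). Trem2-202 held 21.9%, 19.7%, 7.70% and 13.6% in CTRL 1 to 4 and 5.68%, 8.75%, 8.87%, 14.7% and 0% in Emul 1 to 5. These shares rest on at most 22.5 estimated counts per library, and the groups overlap. Trem2-202 starts later than Trem2-201, and its exon 4 begins 55 bases earlier, at chr17:48351691-48351745 (plus strand, mm10), a stretch that Trem2-201 lacks and that GENCODE annotates as coding in Trem2-202. It is shown in capitals between 10 bases of the neighbouring exon parts, followed by the same junction in Trem2-201.
Trem2-202: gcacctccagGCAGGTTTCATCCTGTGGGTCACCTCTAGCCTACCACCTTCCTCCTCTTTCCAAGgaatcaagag
Trem2-201: gcacctccaggaatcaagag
The retained-intron transcript Trem2-203 held 24.7% to 40.2% of the counts.

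P2ry12-202 held 71.0% to 73.7% of the counts of P2ry12 in CTRL and 62.1% to 73.2% in Emul (exact permutation p = 0.111, adjusted p = 0.222). In Aif1 the estimate switched between Aif1-201 and Aif1-203 from library to library. Aif1-203 held 0% in CTRL 3 and in Emul 1, where Aif1-201 held 81.4% and 87.4%, and 93.1% in Emul 4, where Aif1-201 held 0%. Such switches occurred in both groups.

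**Figure D4:**
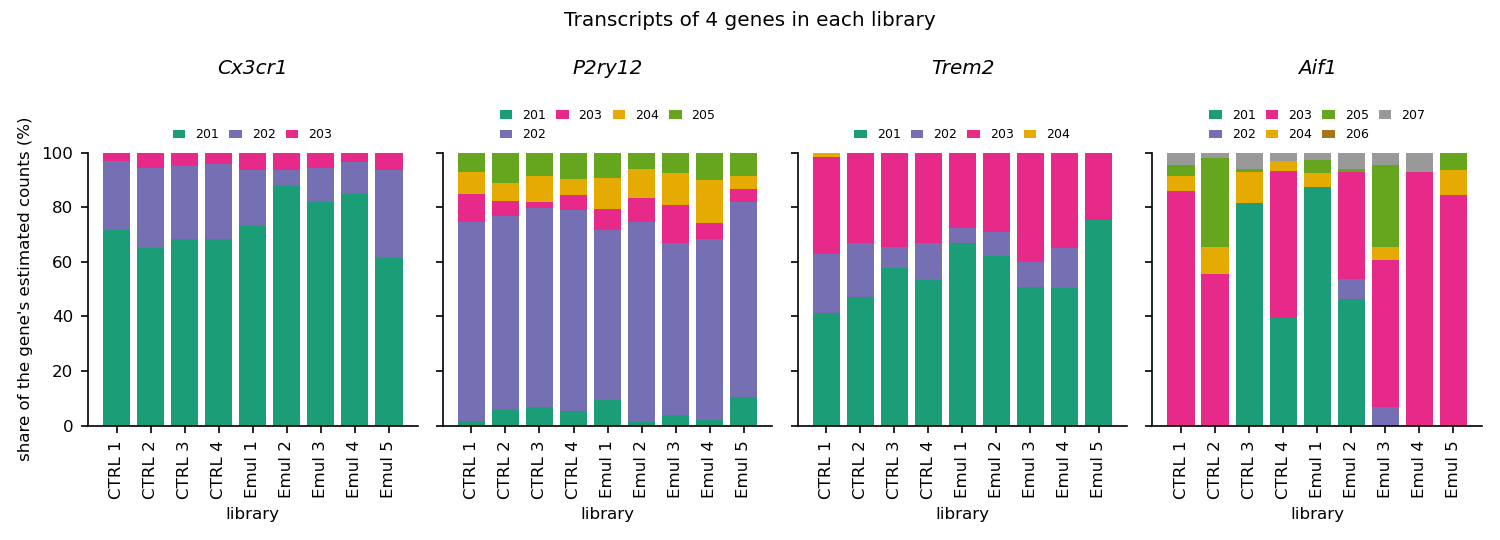
Share of the estimated counts of Cx3cr1, P2ry12, Trem2 and Aif1 on each transcript (colours, with the transcript's number), in each CTRL and Emul library. Cx3cr1-202 is nearly constant in the CTRL libraries (25.3% to 29.5%) and varies from 5.95% to 32.2% in Emul, while Aif1 switches between transcripts in both groups.

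The log2 CPM table of the authors also held all 9 genes, and 6 of them, from Tmem119 to C1qc, lay 0.11 to 0.12 above the summed transcripts. P2ry12 lay 0.31 below them on the log2 scale, with 4.13 ± 0.11 in CTRL (SD, n = 4) and 4.13 ± 0.16 in Emul (SD, n = 5). The transcripts P2ry12-203, P2ry12-204 and P2ry12-205, those with higher Ensembl numbers, held 25.4% of its estimated counts. Csf1r lay 0.085 above the summed transcripts, with 1.81% of its counts on transcripts with higher Ensembl numbers. Cx3cr1 lay 0.037 above, with 5.04% on such transcripts, and for the 6 genes from Tmem119 to C1qc that share was 0%. With such transcripts left out of the sums, the log2 fold change of P2ry12 was 0.00031. Whether the authors' table leaves such transcripts out was not tested. In that table the log2 fold change of P2ry12 was 0.0034 (limma adjusted p = 0.993) and that of Aif1 0.22 (adjusted p = 0.607), and 0 of the 9 genes had an unadjusted p under 0.05.

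Other homeostatic microglial genes were examined beside the 9. Of 19 tested, 0 had an unadjusted p-value under 0.05 in limma-voom, against 15.8% of all genes, and their median log2 fold change was 0.011. Their levels differed widely, with Cst3 at 675 to 782 CPM and Adgrg1 at 172 to 192, beside 10.5 to 12.3 for Tmem119. In bulk tissue the part of microglia in these 19 genes was not tested. The lectin gene Siglech had a log2 fold change of 0.10 (adjusted p = 0.522) and Itgam one of 0.01 (adjusted p = 0.946).

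Among 10 ligands, adaptors and signalling partners of the receptors, 2 had an unadjusted p-value under 0.05, 1 in each direction, against 6.84% of all genes higher and 8.99% lower. Fractalkine itself, Cx3cl1, was at 8.31 to 8.33 log2 CPM in CTRL and 8.31 to 8.48 in Emul, with a log2 fold change of 0.10 (limma-voom adjusted p = 0.215). The receptor ligand Csf1 had a log2 fold change of -0.11 (limma-voom adjusted p = 0.292) and the other ligand Il34 one of 0.08 (adjusted p = 0.471). Tyrobp, the adaptor through which TREM2 signals, gave 2.65, 2.64, 2.65 and 2.72 in CTRL 1 to 4 and 2.63, 2.63, 2.48, 2.48 and 2.48 in Emul 1 to 5. Tyrobp alone of these 10 genes did not overlap between the groups, narrowly, against 6.6% of all genes. Its log2 fold change of -0.13 had a limma-voom p of 0.100 and an adjusted p of 0.411.

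Of 13 genes of TGF-β supply and microglial identity, 3 had an unadjusted p-value under 0.05, 2 higher and 1 lower in Emul, against 15.8% of all genes, and 0 had an adjusted one. Nrros, which anchors latent TGF-β on microglia, had a log2 fold change of 0.36 (SE 0.097, limma-voom adjusted p = 0.146), with 2.48, 2.30, 2.23 and 2.10 in CTRL 1 to 4 and 2.45, 2.73, 2.58, 2.69 and 2.71 in Emul 1 to 5. For Sall1, a transcription factor of microglial identity, all 5 Emul libraries (4.42 to 4.59) lay below all CTRL libraries (4.64 to 4.81). Its log2 fold change was -0.17 (SE 0.050, limma-voom adjusted p = 0.170). The groups did not overlap for 6.6% of all genes. Of 74 tested genes in the ligand, identity, other homeostatic, complement and activation lists, 2 did not overlap, Tyrobp and Sall1. Sall1 was at 21.3 to 27.9 CPM, beside 1.76 to 2.95 CPM for Spi1, and which cells its transcripts came from was not tested. Mef2a, a transcription factor that is not restricted to microglia, had a log2 fold change of 0.25 (limma-voom adjusted p = 0.226). Tgfb1 had -0.10 (adjusted p = 0.673) and Spi1, which encodes PU.1, 0.19 (adjusted p = 0.608).

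Complement outside C1q had 18 of 25 listed genes tested, of which Calr, a chaperone that C1q can bind, had a log2 fold change of 0.11 (limma-voom adjusted p = 0.181) and C4b, the next component of the classical pathway, -0.14 (adjusted p = 0.273). C3, the central component, ranged from 1.86 to 2.08 log2 CPM in CTRL and from 1.34 to 2.02 in Emul, with a log2 fold change of -0.25 (adjusted p = 0.376). Of the C1 protease genes, C1s1 was counted thinly, at 51.1 to 92.1 estimated counts, with a log2 fold change of 0.05 (limma-voom adjusted p = 0.896). C1ra was untested at 19.2 to 49.9 estimated counts. The products of C1s1 and C1ra join C1q in the C1 complex.

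Of 26 genes of activated or disease-associated microglia, 14 were tested and 2 had an unadjusted p-value under 0.05. That share is near the 15.8% of all genes in either direction. Both genes were higher in Emul, against 6.84% of all genes higher, and 0 were lower, against 8.99%. With 2 genes, no direction was read from this. The median log2 fold change of the 14 was 0.00054, within a range from -0.28 to 0.41. Their levels differed widely, with Ctsb at 438 to 473 CPM and Ctsd at 310 to 340, beside 2.31 to 2.92 for Trem2. In bulk tissue the part of microglia in these genes was not tested, so the median is no measure of microglial activation. The 2 genes were the lipase gene Lpl (log2 fold change 0.17, limma-voom adjusted p = 0.276) and Cd74, the invariant chain of MHC class II (0.41, adjusted p = 0.301). Cd74 was highest in Emul 1 and Emul 5, at 2.56 and 2.82 log2 CPM, beside 1.75 to 2.05 in CTRL. The untested genes included Cst7 with 4 to 15 estimated counts per library, Il1b with 1 to 7, Il6 with 0 to 3 and Tnf with 0 to 2.

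Markers of other macrophages and of blood were examined because they share genes with microglia. Of 8 tested markers of perivascular and meningeal macrophages, 0 had an unadjusted p-value under 0.05, against 15.8% of all genes. Their median log2 fold change was 0.18, within a range from -0.17 to 0.22. The mannose receptor Mrc1 had a log2 fold change of 0.18 (limma-voom adjusted p = 0.4598). The summed CPM of all 10 listed markers of these macrophages was 55.4 to 67.5 in CTRL and 55.7 to 64.7 in Emul. Of 9 markers of blood leukocytes only 2 passed the filter, and the summed CPM of all 9 was 7.08 to 7.59 in CTRL and 6.46 to 9.87 in Emul. Ptprc alone gave 3.36 to 4.78 CPM of this sum over the libraries, and which cells it came from was not tested. The 5 red blood cell markers had a summed CPM of 225 to 653 in CTRL and 393 to 815 in Emul. Of these 5, 0 had an unadjusted limma-voom p under 0.05, against 15.8% of all genes. All 5 log2 fold changes were above 0, from 0.39 to 0.62 with a median of 0.44, and the groups overlapped for each. Whether the blood content of the samples differed was not tested. No listed marker was at 0 in all libraries.

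Among markers of other brain cells, neuronal and oligodendrocyte genes had the most unadjusted p-values under 0.05. Against 15.8% of all genes, 6 of 7 neuronal markers had an unadjusted p-value under 0.05, 5 of them higher in Emul, with a median log2 fold change of 0.12 and a summed CPM of 2774 to 3039 in CTRL and 3023 to 3273 in Emul. Of 6 oligodendrocyte markers 5 had one, all lower in Emul, with a median of -0.30 and a summed CPM of 12670 to 15985 in CTRL and 9878 to 13499.5 in Emul. Among 7 astrocyte markers Gfap alone did (-0.40, limma-voom adjusted p = 0.102), as did 1 of 5 oligodendrocyte precursor markers and 1 of 8 endothelial and mural markers, both lower in Emul. The summed CPM of the 9 microglial genes was 202 to 221 in CTRL and 197 to 217 in Emul, and the part of the other cell types in it was not tested.

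**Figure D5:**
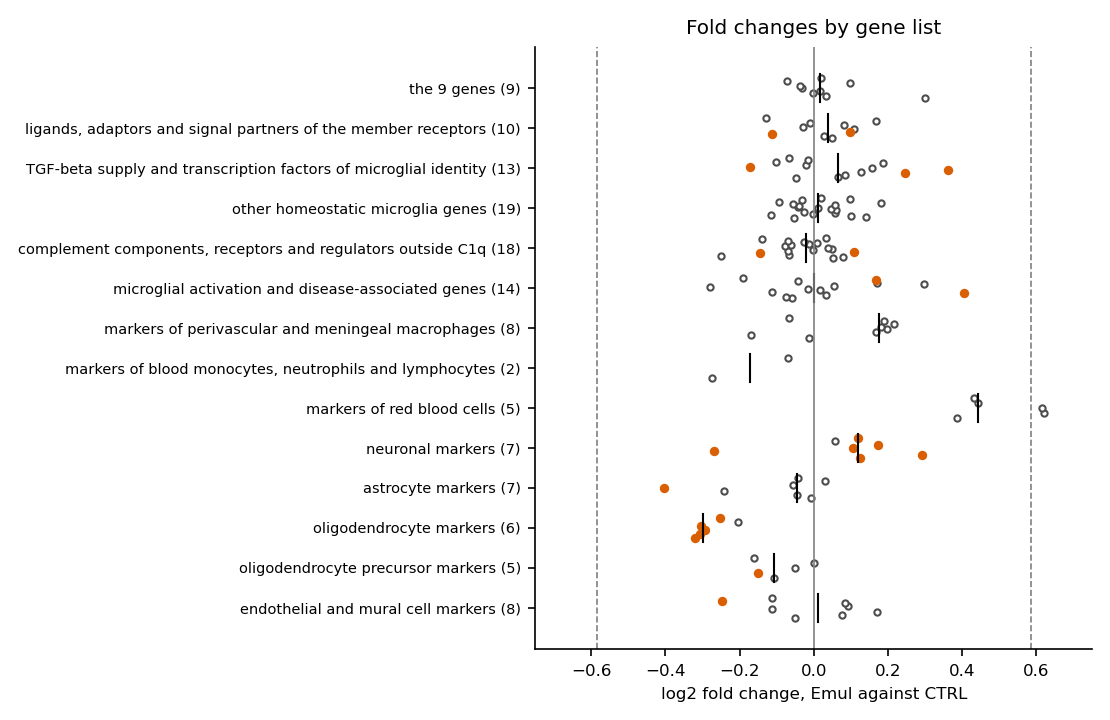
Log2 fold changes of Emul against CTRL for the tested genes of each list (number in brackets), filled orange where the unadjusted limma-voom p-value is under 0.05, with a black line at the median and dashed lines at 1.5-fold. The 9 genes and the 19 other homeostatic genes centre on 0 with no filled points, and 5 of 6 oligodendrocyte markers are filled and lie between -0.25 and -0.32.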

How the data were processed

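RNA of the MBH was sequenced by the authors from 9 litters as stranded mRNA libraries. Per the labels, the submitters used FastQC 0.11.9, kallisto 0.46.1, edgeR 3.40.1 and the build mm10. The authors deposited kallisto's estimated counts per transcript, which are unscaled, and TPM, which has the same total in each library without a further step such as TMM. They also deposited a log2 CPM table per gene symbol with 14592 named rows. How that table was summed to genes is not given in the sources used here.

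Transcripts were matched to genes in GENCODE M21, with 97.8% of 119414 matched, and estimated counts were summed per gene (rounded for edgeR and DESeq2). The 1.20% to 1.27% of counts left unmatched were not used. The test, limma-voom, covered genes that exceeded 1 CPM in 4 or more libraries, with TMM scaling and no covariates (R 4.3.3, limma 3.58.1, edgeR 4.0.16, DESeq2 1.42.0). P-values were adjusted by Benjamini-Hochberg over all genes tested, so that limma's adjusted p-values refer to 15340 genes. Library log2 CPM used a prior count of 2. Single values were compared by two-sided exact permutation tests. The tests were checked on simulated counts.

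The 9 genes, the gene lists, the rule for named genes (the 9; genes of each list past the cutoff, otherwise up to 4 with the smallest p; 16 fixed genes; the 10 most alike) and the tests were chosen with earlier results of these data known. Of the 16 fixed genes, 1 is not reported here. Alternatives covered the test, scaling, filters, gene summary, replicate block and each library left out. No batch is given in the labels. Libraries of a group differed by more than sampling noise (chi-square per gene 7.49 or more).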

Additional observations from a re-analysis of the deposited data

Results flagged for a closer look

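Tmem119 in CTRL 1 stood apart from the other CTRL libraries, with 3.496 log2 CPM beside 3.61 to 3.63. Its gap to the nearest of them was 0.835 of the whole range of the group. It was the only such case among 32 groups of values examined (log2 CPM of the 9 genes and shares of 7 transcripts, in CTRL and in Emul), where chance marks about 1 group in 20, or 1.6 of 32. Without CTRL 1, the log2 fold change of Tmem119 was -0.10 (limma-voom adjusted p = 0.514).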

How the results depend on the processing

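In all 25 alternatives, 0 of the 9 genes passed the cutoff, and in the 23 with a refitted model 0 had an adjusted p-value under 0.05. The number with an unadjusted p under 0.05 was 1 with sample quality weights and 1 with mitochondrial genes left out, both times Aif1, and 0 to 1 with 1 library left out, namely Aif1 without CTRL 3 or Emul 2 and P2ry12 without CTRL 4. The number of all genes past the cutoff, 72, became 683 with no filter on low counts and 26 with CPM above 5, which tests fewer genes and drops Aif1 and Trem2, and was 48 to 95 with 1 library left out. Small fold changes turned direction without passing a test. The median log2 fold change of the 9 genes was -0.0144 with total counts alone and -0.0158 to 0.0445 with 1 library left out. The log2 fold change of C1qb was 0.0103 with sample quality weights, 0.00016 with mitochondrial genes left out, 0.0074 with the replicate block, 0.0079 in the same 8 libraries with no block, and -0.0647 to 0.0436 with 1 library left out. With total counts alone, Trem2 was at -0.0104 and C1qc at -0.0144. With 1 library left out, Trem2 was at -0.0325 to 0.0691, C1qa at -0.0053 to 0.0703 and C1qc at -0.0158 to 0.0680. On TPM as deposited, P2ry12 was at -0.0310, Trem2 at -0.0463, C1qa at -0.0697 and C1qc at -0.0880, and without mitochondrial transcripts C1qa was at -0.0060 and C1qc at -0.0242. Apart from the loss of genes under the stricter filter, the cause was not tested. TPM scales, transcripts with lower Ensembl numbers and the 8 libraries with no block were chosen after seeing the data. Counting error limits Aif1 and Trem2 most.

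The groups share replicate numbers 1 to 4, but same-numbered libraries did not deviate together (correlations -0.16, -0.01, 0.02 and -0.06), and 0 libraries correlated best with their own number, so the numbers were not taken as pairs. With the replicate block over 8 libraries, 73 of all genes passed the cutoff, beside 74 without it, and none (0) of the 9 reached an unadjusted p under 0.05 (0.0698 for Aif1).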
